A study of Mus musculus with 2 samples.

Results

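Accessible chromatin was examined at 49 genes that encode receptors for serotonin, dopamine, noradrenaline and adrenaline, acetylcholine and histamine. They were chosen by symbol: autosomal protein-coding genes of GENCODE M21 named Htr, Drd, Adra, Adrb, Chrm, Chrna, Chrnb or Hrh with a number, 49 of 20807 such genes. The set holds 13 serotonin, 5 dopamine, 9 adrenergic, 5 muscarinic, 13 nicotinic and 4 histamine receptor genes, and 1 further gene of the same naming on chromosome X was left out. DNase-seq, which finds DNA that the enzyme DNase I can reach and cut, had been run on right cerebral cortex of B6CASTF1/J mice, first-generation hybrids of C57BL/6J and CAST/EiJ. All animals were adult females aged 18 to 20 months, untreated as far as the labels say, in 1 group of 2 biological replicates. The labels give separate biosamples with the same donor identifier for the replicates, so nothing says that they came from different animals, and their spread may be technical. With 1 group there is no comparison between conditions, and genes are not replicates. All statements about lists are therefore counts and medians beside the same over all genes, with no test.

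Monoamines and acetylcholine reach the cortex mainly through long axons of cells in the brainstem, hypothalamus and basal forebrain, and they tune how cortical cells respond to glutamate and GABA. Most of their receptors signal through G proteins: Gs-coupled receptors raise cyclic AMP, Gi-coupled receptors lower it, and Gq-coupled receptors act through phospholipase C and calcium. The nicotinic receptors and the Htr3 receptors are instead ion channels built of several subunits. An accessible promoter or distal region marks DNA where proteins displace nucleosomes in some of the cells of the tissue. In a bulk tissue, fewer cells with an open region and a less open region in each cell cannot be told apart.

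Each library has a shorter and a longer peak list, and the shorter was used (86601 peaks in replicate 1 and 88482 in replicate 2). Values are the signal that the authors deposited per peak, on a scale not described in the labels. All values were whole multiples of 1 step within 0.05 steps, and if a step is 1 read per M (M for mega) the libraries held 201 M and 112 M reads. Values were lower in replicate 1, with a median log2 difference of -0.50 (replicate 1 minus replicate 2) over all genes open at the promoter in both. Promoter peaks in both replicates were found at 5 of 8 markers of excitatory cortical neurons, among them Nrgn, Camk2a and Neurod6 (7 of 8 with the longer lists, Slc17a7 among those added). Of the other marker lists, inhibitory neurons had 2 of 8, hippocampus 2 of 4, thalamus 2 of 4, cerebellum 2 of 6, astrocytes 3 of 6, oligodendrocytes 3 of 5, microglia 1 of 5, endothelium 1 of 4 and skeletal muscle 0 of 5. Striatum markers had 7 of 8, which is given again beside Drd1.

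Promoter peaks were scarce at these receptor genes and, where present, weak. Promoter windows reached 500 bp to each side of every start site of a gene, and the strongest peak touching them gave the value. The members had a median of 2 start sites and all genes 3, so the typical member had fewer windows. A peak there in both replicates was found at 21 of 49 genes (42.9%), against 59.1% of all autosomal protein-coding genes. A peak in only 1 replicate was found at 7 more, where 4.04% of all genes had such a call. The remaining 21 had none. The systems spread widely: 3 of 4 histamine, 3 of 5 muscarinic, 7 of 13 serotonin, 4 of 9 adrenergic, 1 of 5 dopamine and 3 of 13 nicotinic receptor genes had a peak in both. By coupling class, 6 of 9 Gq-coupled, 5 of 9 Gs-coupled and 6 of 16 Gi-coupled receptors had a promoter peak in both, and 4 of 15 ion channel subunits. The shortfall against all genes depended on the peak list: with the longer lists 31 of the 49 (63.3%) were called in both, against 63.6% of all genes, while with the stronger 50% of peaks it was 26.5% against 53.2%. The longer lists kept the 21 and added Htr1a, Htr1f, Htr2a, Drd2, Drd4, Drd5, Adra1a, Adra2b, Adrb1 and Chrna5, so that dopamine receptor genes went from 1 to 4 of 5 and adrenergic ones from 4 to 7 of 9. Nicotinic genes went only from 3 to 4 of 13. The shortfall was also narrower, at 36.7% against 44.0%, when peaks near a start site of another gene were left out.

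The level of the signal gave the same picture. By mean log2 value over the replicates, all 21 promoters lay under the median of all accessible promoters, from percentile 1.93 (Htr5b) to 48.1 (Chrnb1). In replicate 1 alone Chrnb1 lay above the median (2.48 against 2.24). The median mean value was 1.18, against 2.78 over all genes so called. In replicate 1 the medians were 0.949 against 2.24, and in replicate 2 they were 1.47 against 3.28. The strongest, Chrnb1, rested on 498 inferred reads in replicate 1, with an exact 95% Poisson interval from 455 to 544, and on 310 in replicate 2 (276 to 347). The weakest, Htr5b, rested on 118 (97.7 to 141) and 57 (43.2 to 73.9), and such intervals cover counting error only. Inferred reads and their intervals hold only if a step is 1 read per M and the values count the reads of a peak.

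**Figure D1:**
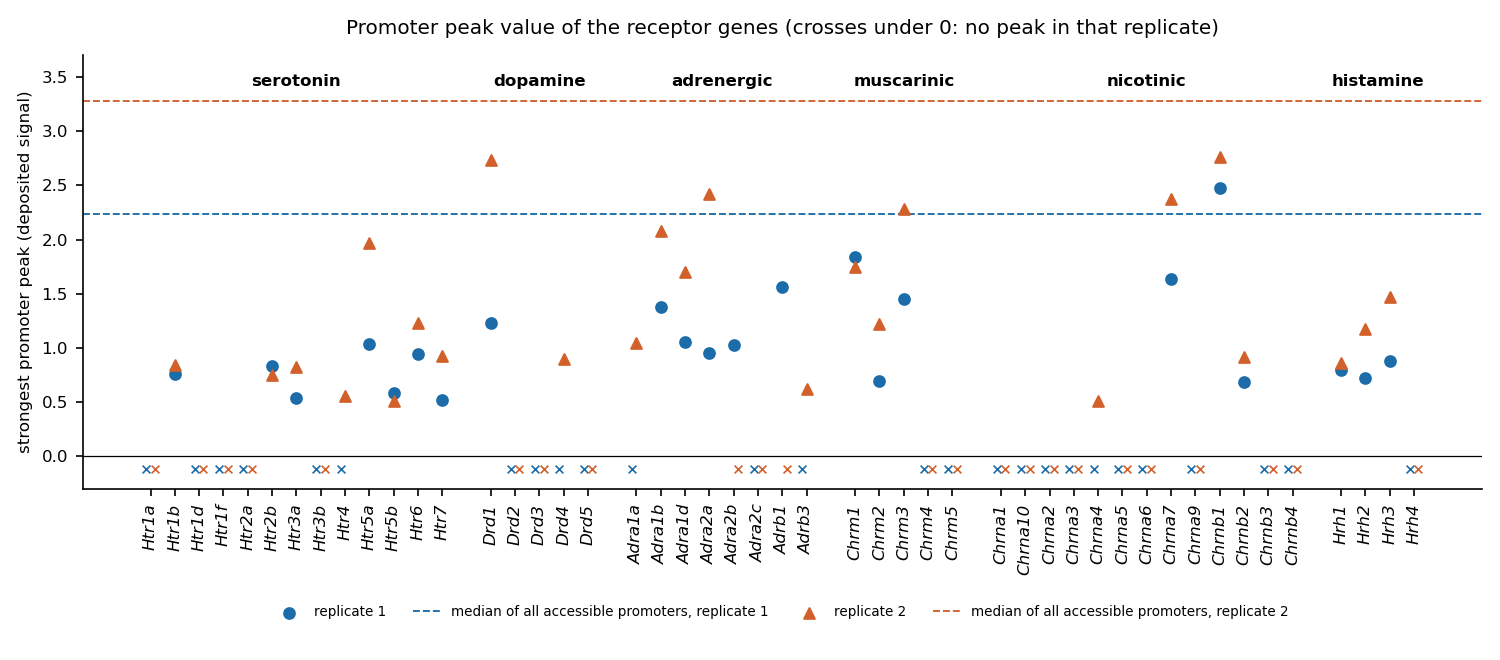
Deposited signal of the strongest promoter peak of each receptor gene reported by name in replicate 1 (circles) and replicate 2 (triangles), grouped by transmitter, with a cross under 0 where a replicate had no peak. Dashed lines mark the medians over genes whose promoter was called in both replicates, 2.24 in replicate 1 and 3.28 in replicate 2. All triangles lie under the upper line, and Chrnb1 is the only circle above the lower one.

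Among serotonin receptors, Htr5a, a Gi-coupled receptor of forebrain neurons, had the strongest promoter, with 1.04 in replicate 1 and 1.97 in replicate 2 (mean 1.50 ± 0.659, SD, n = 2). Htr6, a Gs-coupled receptor, followed with 0.949 and 1.23 (1.09 ± 0.199), measured at different peaks in the replicates. The peaks of Htr6 lie beside a start site of the predicted gene Gm45533, so they may not belong to Htr6. The other 5 promoters lay between 0.508 and 0.927 in either replicate: Htr1b, Htr2b, Htr3a, Htr5b and Htr7. Htr4, which raises cyclic AMP, had a peak of 0.562 only in replicate 2. No promoter peak of the shorter lists was found at Htr1a, Htr1d, Htr1f, Htr2a and Htr3b. Htr1a and Htr2a, the inhibitory and excitatory receptors best known in cortical pyramidal cells, both had a longer-list promoter peak in both replicates. The nearest shorter-list peak of Htr1a lay 612 bp from a start site in replicate 1 (0.462) and 759 bp in replicate 2 (1.11), just outside the window.

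The serotonin receptor genes had 26 distal regions, which are merged regions with a peak of each replicate, over 500 bp from all start sites and within 100 kb of the gene as nearest gene. The strongest by mean, the measure used for all regions called strongest, lay in an intron of Htr2a (gene at chr14:74640840-74709494), 2.71 kb downstream of its start, at 1.33 in replicate 1 and 4.04 in replicate 2 (2.68 ± 1.92, SD, n = 2). In replicate 2 this region exceeded all promoters of the set, while in replicate 1 it lay under those of Chrnb1, Chrm1, Chrna7, Adrb1, Chrm3 and Adra1b. Htr5a had a region 64.6 kb downstream (2.40 and 2.07), and Htr1b one 5.50 kb downstream, beyond its 3′ end (1.96 and 3.03). Htr1a, Htr2a, Htr4 and Htr5a had 4 distal regions each, the most in this system, while Htr1d, Htr2b and Htr7 had none. The Htr2a region is printed because it is the strongest serotonin receptor region and was over 2-fold higher in replicate 2 (chr14:74643441-74643660, mm10, plus strand). Capitals in this and the following sequences mark bases inside a footprint of both replicates, a footprint being a short stretch that the authors' files list as protected from cutting. Sequence is that of the C57BL/6J reference, not of the hybrid's reads.
Htr2a intron, 2.71 kb downstream: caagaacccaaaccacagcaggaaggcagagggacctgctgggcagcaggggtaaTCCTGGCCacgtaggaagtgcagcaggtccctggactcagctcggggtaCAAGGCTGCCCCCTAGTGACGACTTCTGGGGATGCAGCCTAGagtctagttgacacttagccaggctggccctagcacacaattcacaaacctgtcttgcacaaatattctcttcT

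Dopamine receptors had 1 promoter open in both replicates, that of Drd1, the Gs-coupled D1 receptor (chr13:54051183-54055705). It measured 1.23 in replicate 1 and 2.74 in replicate 2 (1.98 ± 1.06, SD, n = 2), on 248 (218 to 281) and 307 (274 to 343) inferred reads. After centring on the median over all genes it was lower by 0.65 on the log2 scale in replicate 1 (-0.65). The striatum, which lies under the cortex and is rich in D1 and D2 receptors, was represented by 7 of 8 marker promoters in both replicates. Some striatal genes moved the same way, such as Rgs9 (1.73 and 3.86), Adcy5 (1.36 and 3.60) and Gnal (1.36 and 2.61). Others did not, such as Ppp1r1b (1.38 and 1.49), and the median centred difference of the striatum list was 0.15. The part of striatal tissue in the Drd1 value was not tested. Drd2, the Gi-coupled receptor, and Drd5 had promoter peaks in both replicates only in the longer lists. Drd4 had a peak of 0.901 in replicate 2, and Drd3, whose cells are few outside the ventral striatum, had none in any list.

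Distal regions of dopamine receptors numbered 9. The strongest lay 98.4 kb downstream of Drd1, near the limit of 100 kb, at 2.67 and 3.17, and its assignment to Drd1 rests on distance alone. Drd5, the other Gs-coupled member, had 4 regions without a shorter-list promoter peak. The strongest of these, 11.4 kb upstream, measured 1.50 and 3.43, and a neighbour 10.2 kb upstream 0.467 and 1.69. The Drd1 promoter (chr13:54055706-54055860, the part outside UTRs) and the Drd5 region (chr5:38307841-38308040) are printed, mm10 plus strand, as the promoter and the strongest of the distal regions of this system that were over 2-fold higher in replicate 2.
Drd1 promoter: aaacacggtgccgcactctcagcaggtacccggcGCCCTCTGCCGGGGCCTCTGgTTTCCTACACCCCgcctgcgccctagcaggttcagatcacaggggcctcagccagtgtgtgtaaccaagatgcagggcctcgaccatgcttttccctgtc
Drd5, 11.4 kb upstream: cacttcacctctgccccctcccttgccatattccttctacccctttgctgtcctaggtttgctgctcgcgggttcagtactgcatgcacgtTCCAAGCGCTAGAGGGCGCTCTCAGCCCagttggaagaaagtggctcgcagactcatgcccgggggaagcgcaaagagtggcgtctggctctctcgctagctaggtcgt

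Of the 7 members with a promoter peak in only 1 replicate, 4 were adrenergic receptor genes. The alpha-1 receptors are Gq-coupled, and of these Adra1b (1.38 and 2.08, mean 1.73 ± 0.492, SD, n = 2) and Adra1d (1.05 and 1.70) had a promoter peak in both replicates, whereas Adra1a had 1.04 only in replicate 2. Of the Gi-coupled alpha-2 receptors, Adra2a had 0.954 and 2.43, taken from different peaks of its promoter (1.69 ± 1.04). Adra2b had 1.03 in replicate 1, and in replicate 2 a peak of 2.34 whose edge lay 508 bp from the start site, just outside the window. Adra2c had peaks 522 bp from its start in both replicates (0.944 and 1.71), also just outside. Of the Gs-coupled beta receptors, Adrb1 had a promoter peak only in replicate 1 (1.56, with 2.08 in the longer list of replicate 2) and Adrb3 only in replicate 2 (0.624). All 9 adrenergic receptor genes had an interval of FDR 0.001 or less in a promoter window in both replicates, a share that was 27 of 49 over the members and 59.9% over all genes.

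Adrenergic genes held 31 distal regions, the largest total of the 6 systems. Adra2c, which restrains noradrenaline release, had 10 of them without a promoter peak, between 0.577 and 1.11 in replicate 1 and between 0.508 and 1.78 in replicate 2. They include 3 in its exon (gene at chr5:35278319-35281763). Adrb1, the main beta receptor of cortical neurons, had 17 distal peaks in replicate 1 and 5 in replicate 2, and 5 were shared. With the longer lists the counts were 24 and 10, so the gap between the libraries remained. The strongest Adrb1 regions lay 24.7 kb upstream (1.94 and 3.13) and 11.5 kb upstream (1.64 and 2.92). Adra1a had 5 regions, up to 96.6 kb upstream, and Adra2a and Adra2b had none in both replicates. The region 24.7 kb upstream of Adrb1 is printed because a neuronal type of E-box, CAGATG, lies inside its footprint of both replicates (chr19:56697421-56697660, mm10, plus strand).
Adrb1, 24.7 kb upstream: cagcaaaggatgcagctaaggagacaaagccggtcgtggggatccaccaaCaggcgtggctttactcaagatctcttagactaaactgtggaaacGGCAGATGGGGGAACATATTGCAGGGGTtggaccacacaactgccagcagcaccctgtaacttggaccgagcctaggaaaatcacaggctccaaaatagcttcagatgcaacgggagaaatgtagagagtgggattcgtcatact

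Muscarinic receptors were accessible by subtype. Chrm1, the Gq-coupled M1 receptor of cortical pyramidal cells, had 1.84 in replicate 1 and 1.75 in replicate 2 (1.79 ± 0.0646, SD, n = 2). Chrm3, also Gq-coupled, had 1.45 and 2.28 (1.87 ± 0.588). Chrm2, the Gi-coupled receptor of cholinergic terminals and interneurons, had 0.696 and 1.22, at a promoter shared with 9330158H04Rik. Chrm4 and Chrm5 had no promoter peak in any list. Relative to all genes Chrm1 was higher in replicate 1, with a centred log2 difference of 0.57. All 5 muscarinic genes had distal regions, 18 in all. A pair of regions 1.33 and 1.74 kb upstream of Chrm1, within the non-coding gene AC025794.1, were, at 2.88 and 3.51 and at 2.53 and 3.26, stronger than its promoter, and the nearer had the highest mean of the 116 distal regions of the set. None of the 4 regions of Chrm1 lay over 2000 bp from all start sites, so their count as distal rests on the limit of 500 bp. Chrm4 had 4 regions, of which the strongest lay 1.62 kb upstream (1.80 and 2.04) and 3 lay in the neighbouring gene Ambra1. Chrm3 had 6, of which 5 lay in introns of its long gene and 1 was intergenic. The nearer Chrm1 region and the Chrm3 region 3.51 kb upstream, inside an intron of a longer transcript (1.05 and 2.29), are printed because both hold a CTCF match in a footprint of both replicates while only Chrm3 was over 2-fold higher in replicate 2 (chr19:8662321-8662600 and chr13:9882421-9882600, mm10, plus strand).
Chrm1, 1.33 kb upstream: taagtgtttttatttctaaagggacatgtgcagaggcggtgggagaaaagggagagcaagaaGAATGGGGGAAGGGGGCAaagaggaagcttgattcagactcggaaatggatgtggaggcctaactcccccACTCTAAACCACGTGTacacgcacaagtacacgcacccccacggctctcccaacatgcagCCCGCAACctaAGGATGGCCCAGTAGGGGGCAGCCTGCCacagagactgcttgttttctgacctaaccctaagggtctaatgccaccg
Chrm3 intron, 3.51 kb upstream: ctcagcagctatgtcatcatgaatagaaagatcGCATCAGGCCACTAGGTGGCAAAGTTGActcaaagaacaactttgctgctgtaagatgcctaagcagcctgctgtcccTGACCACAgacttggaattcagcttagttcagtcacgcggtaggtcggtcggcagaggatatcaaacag

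Nicotinic receptor subunits had few accessible promoters. Only Chrna7, Chrnb1 and Chrnb2 had a promoter peak in both replicates, and Chrna4 had 0.508 only in replicate 2. Chrna7, which forms homomeric receptors in the brain, had 1.64 and 2.37 (2.01 ± 0.517, SD, n = 2). Chrnb1, a subunit of the muscle receptor, had the strongest promoter of the set, 2.48 and 2.76 (2.62 ± 0.204). Its peaks lay 455 and 435 bp downstream of the nearest start site. The partner subunits of the muscle receptor differed: Chrna1, Chrnd and Chrng had no promoter peak in both replicates of either list. Chrne had one of 0.597 in the shorter list of replicate 2 and a longer-list peak in both, with a start site 151 bp from one of 4930544D05Rik. Chrnb2, which pairs with Chrna4 in the main high-affinity nicotinic receptor of the brain, had 0.691 and 0.918. Chrna2, Chrna3, Chrna6, Chrna9, Chrna10, Chrnb3 and Chrnb4 had no promoter peak in either list in both replicates. In the cluster of Chrna5, Chrna3 and Chrnb4 on chromosome 9, a single distal region was shared, 2.40 kb inside Chrna3 (0.586 and 1.27), and only Chrna5 had a longer-list promoter peak in both.

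The Chrnb2 promoter, described after its values were seen, was the 1 promoter region of 28 in the set (3.57%) with a match to RE1 in its central 200 bp, against 0.214% of all promoter regions. RE1 is the element bound by REST, which represses neuronal genes in other cells. The match differs from the consensus at 1 of 18 scored bases and lies in a UTR exon 144 bp downstream of a start site (chr3:89764454-89764474, mm10, minus strand). Footprints covered 13 of its 21 bases in replicate 2 and none in replicate 1. A match in the Hrh3 promoter region that reaches past the central 200 bp (chr2:180104574-180104594) is not in that count, and it overlapped no footprint. In the printed match of Chrnb2 capitals mark the bases equal to the consensus.
Chrnb2 RE1 match: TTCAGCACCacGGACAGcGCt

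Nicotinic genes had 12 distal regions, and 8 of the 13 had none. Chrna1 had 4 although its promoter had no peak. One of these, 12.6 kb upstream, was among the strongest of the set (2.60 and 3.20), and the next gene in distance is Chn1, at 32.7 kb, a neuronal signalling gene. The Chrna4 region 16.8 kb upstream measured 0.755 in replicate 1 and 3.38 in replicate 2, the widest replicate gap of the 116 regions on the log2 scale. The Chrna7 promoter (outside UTRs, chr7:63212514-63212700) is printed as the strongest of a brain subunit, with a GC box (GGGCGG on either strand) overlapping a footprint of both replicates. The Chrna1 region (chr2:73592781-73593080) is printed for its matches to the AP-1 element (TGANTCA), the E-box CAGATG and the early growth response element EGR (GCGTGGG), all of which overlap footprints of both replicates, and the Chrna4 region (chr2:181060261-181060480) for its CTCF match. All are mm10, plus strand.
Chrna7 promoter: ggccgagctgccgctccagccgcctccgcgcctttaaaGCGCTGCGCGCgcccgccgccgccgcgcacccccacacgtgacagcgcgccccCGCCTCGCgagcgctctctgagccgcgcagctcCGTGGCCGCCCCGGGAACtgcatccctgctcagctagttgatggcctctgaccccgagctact
Chrna1, 12.6 kb upstream: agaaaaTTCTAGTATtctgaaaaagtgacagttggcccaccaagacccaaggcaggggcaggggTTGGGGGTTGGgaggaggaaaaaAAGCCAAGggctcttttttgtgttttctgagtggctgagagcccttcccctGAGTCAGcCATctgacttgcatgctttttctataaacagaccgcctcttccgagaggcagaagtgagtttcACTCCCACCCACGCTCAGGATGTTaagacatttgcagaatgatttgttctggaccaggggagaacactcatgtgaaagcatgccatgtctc
Chrna4, 16.8 kb upstream: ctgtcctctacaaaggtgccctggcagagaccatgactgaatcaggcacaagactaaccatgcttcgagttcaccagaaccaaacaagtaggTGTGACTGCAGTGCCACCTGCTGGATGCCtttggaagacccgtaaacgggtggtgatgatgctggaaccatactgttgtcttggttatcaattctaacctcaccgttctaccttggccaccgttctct

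Histamine receptors fell apart into 3 accessible genes and Hrh4, a receptor of blood cells, which had no promoter peak in any list. Hrh3, the Gi-coupled autoreceptor, had 0.880 and 1.47 (1.18 ± 0.418, SD, n = 2), Hrh2 (Gs-coupled) 0.721 and 1.18 (0.949 ± 0.323), and Hrh1 (Gq-coupled) 0.800 and 0.865 from different peaks. Hrh2 (chr13:54192129-54236180) had the most distal regions of the set, 14 shared among 18 in replicate 1 and 16 in replicate 2. They ranged from 0.577 to 2.27 in replicate 1 and from 0.758 to 4.19 in replicate 2, and spread from 47.3 kb upstream to 72.1 kb downstream. The strongest lay 33.7 kb downstream, at 1.46 and 4.19. It led only in replicate 2: in replicate 1 it was exceeded by 5 other Hrh2 regions, up to 2.27 at the region 55.8 kb downstream (2.42 in replicate 2). From the strongest region the next gene in distance is Cplx2, 124 kb away. Hrh1 had 6, led by a region 9.49 kb upstream inside an intron of a longer transcript (2.29 and 2.22). Hrh3 and Hrh4 had none. The strongest Hrh2 region is printed with its CTCF match inside a footprint of both replicates (chr13:54247621-54247860, mm10, plus strand).
Hrh2, 33.7 kb downstream: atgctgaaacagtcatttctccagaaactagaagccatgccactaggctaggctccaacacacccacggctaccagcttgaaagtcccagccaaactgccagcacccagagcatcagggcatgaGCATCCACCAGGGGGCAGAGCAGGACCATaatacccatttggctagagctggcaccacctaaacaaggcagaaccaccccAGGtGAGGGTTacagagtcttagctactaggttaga

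Across the set, distal regions were at least as common as around other genes, in contrast to promoters in the shorter lists. With the longer lists promoters did not differ in this way (63.3% of members against 63.6% of all genes). At least 1 was found at 33 of 49 members (67.3%), against 53.9% of all genes. The mean was 2.37 regions a gene against 1.68, with a median of 1 in both. The members also had more room: the sequence nearer to the gene than to any other start site, within 100 kb, had a median of 75.4 kb for the members and 43.5 kb for all genes. Per 100 kb of that sequence the members had 2.43 regions and all genes 2.25. By system the rate was 4.23 for histamine, 2.70 for adrenergic, 2.63 for muscarinic, 2.34 for dopamine, 1.83 for serotonin and 1.78 for nicotinic receptor genes. Single genes weigh on these rates: Hrh2 held 14 of the 20 histamine regions and Adra2c 10 of the 31 adrenergic ones. Distal regions without a promoter peak in either replicate were found at 14 members (28.6%, against 2904 of all 20807 genes, or 13.96%): Htr1a, Htr1f, Htr2a, Htr3b, Drd2, Drd3, Drd5, Adra2c, Chrm4, Chrm5, Chrna1, Chrna3, Chrna9 and Chrnb3. Among them Htr1a, Htr1f, Htr2a, Drd2 and Drd5 had a longer-list promoter peak in both replicates. The nearest peaks of Adra2c lay 522 bp from its start in both replicates. The 28.6% therefore depends on the peak list and on the limit of 500 bp. Of the 116 regions, 61 were intergenic, 39 lay in an intron and 7 in an exon of the gene, and 9 lay in another gene. Their median distance was 30.6 kb, against 16.2 kb for all 34928 distal regions. Their strength was like that of distal regions at large, with 58 above the median of all.

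**Figure D2:**
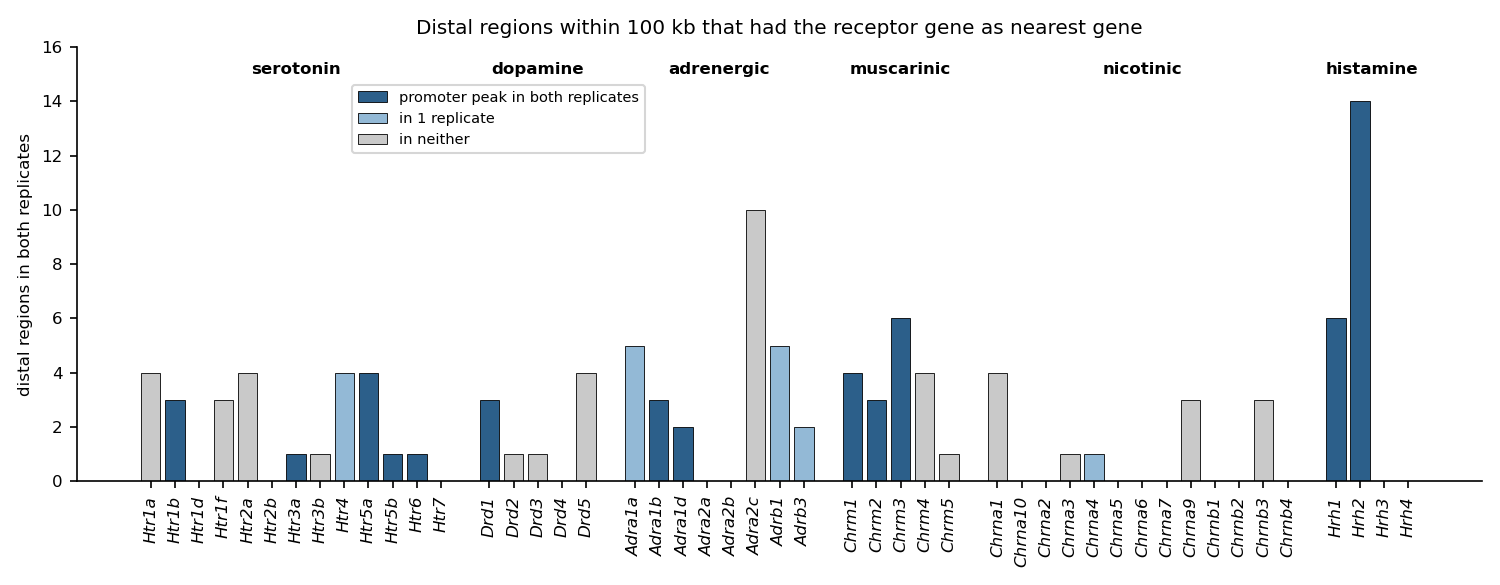
Number of distal regions present in both replicates for each receptor gene reported by name as bars, by transmitter system and shaded by whether the promoter had a peak in both, 1 or neither replicate. Hrh2 (14) and Adra2c (10) stand highest, and Adra2c, Htr1a, Htr2a, Drd5, Chrm4 and Chrna1 have several regions beside a promoter uncalled in the shorter lists.

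**Figure D3:**
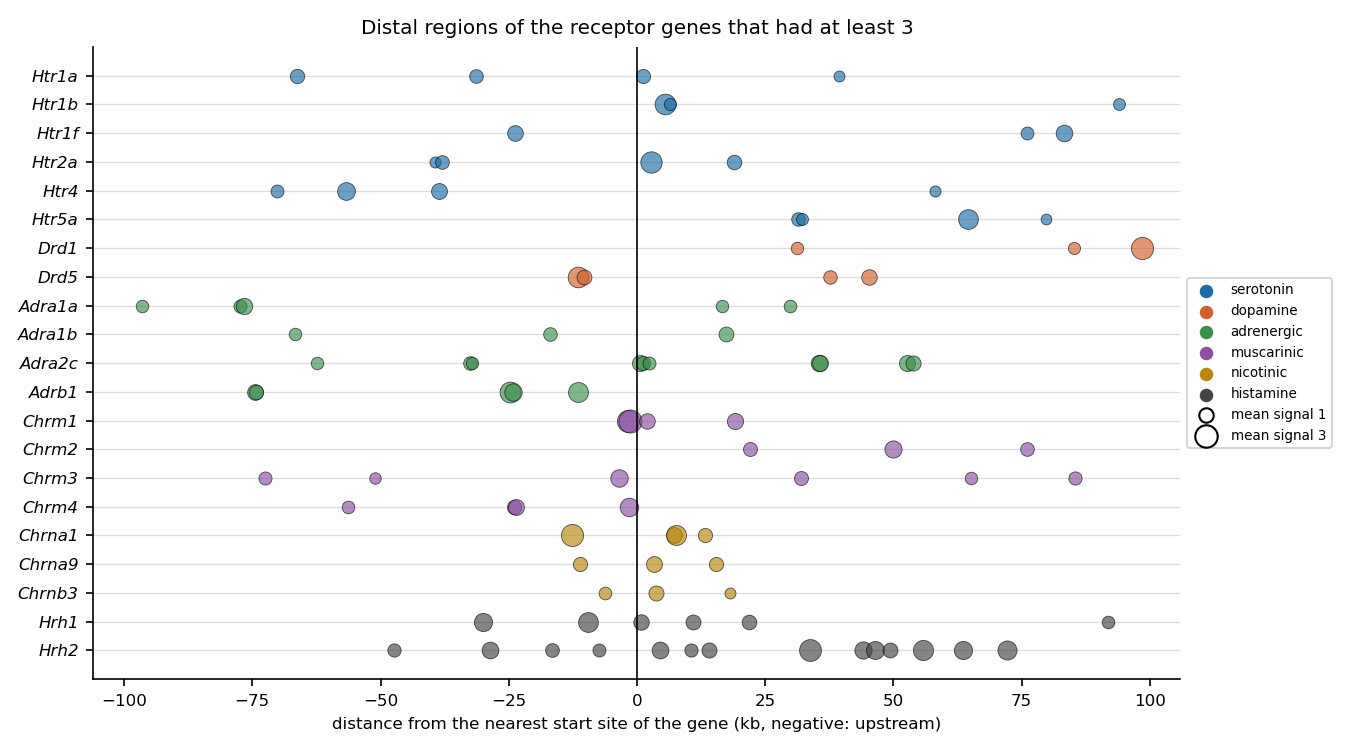
Position of each distal region of the members reported by name with at least 3, as distance in kb from the nearest start site of the gene (negative is upstream), with symbol area growing with the mean deposited signal and colour giving the transmitter system. Hrh2 regions cover both sides, while the strong Chrm1 regions lie within 2 kb of the start and the strongest Drd1 region 98.4 kb from it.

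CpG content was set beside the promoter calls, since CpG-rich promoters are commonly open in many tissues. A start site was taken as CpG-rich when its window had a GC content of at least 50% and an observed over expected CpG ratio of at least 0.6. By that measure 22 of the 49 genes were CpG-rich. Of these, 12 were called in both replicates (54.5%), against 90.1% of all CpG-rich genes. Among the other 27 members it was 9 (33.3%), against 24.5% of the CpG-poor genes. Members with a CpG-rich promoter but no peak in either replicate were found in 3 systems: Htr1d, Htr1f, Drd2, Drd5, Chrna3 and Chrna5 made up this group. These calls rest on the shorter lists. Htr1f, Drd2, Drd5 and Chrna5 had a longer-list promoter peak in both replicates. With the longer lists every CpG-rich member but Htr1d, Chrna3 and Chrna4 was called in both, and the matching share of all CpG-rich genes was not computed. CpG-rich members that were open had a median mean value of 1.44, against 3.05 for all such genes. The strongest CpG-poor members were Drd1, with a ratio of 0.586, and Chrm1, with 0.207.

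**Figure D4:**
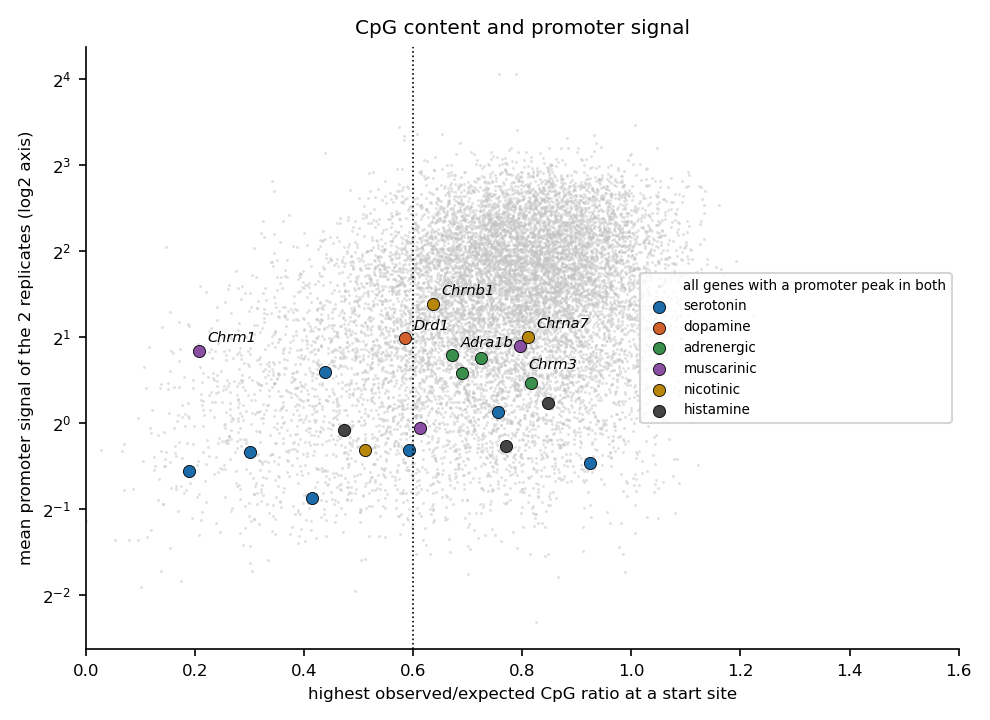
Mean promoter signal of the 2 replicates (log2 axis) against the highest observed over expected CpG ratio at a start site, for all genes called in both (grey) and the 21 receptor genes (coloured by transmitter). The dotted line is the ratio of 0.6, and receptor genes to its right lie in the lower part of the cloud.

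Of the 10 motifs searched, CTCF went with the widest gap between the replicates. CTCF is an architectural protein that anchors chromatin loops. Of the 116 distal regions, 94 were higher in replicate 2 (81.0%, against 83.5% of all distal regions), and 19 were over 2-fold higher there (16.4% against 18.9%). A CTCF consensus match lay in 12 of the 116 (10.3%), against 8.37% of all distal regions. Those 12 had a median log2 difference of -1.07 (replicate 1 minus replicate 2), and the 104 without had -0.29. The same held over all distal regions, where the medians were -1.19 with a match and -0.40 without, so it was not particular to the receptor genes. Over 2-fold higher values in replicate 2 were found at 7 of the 12 and at 12 of the 104, and over all distal regions at 65.7% with a match and 14.6% without. When the consensus was allowed to be off by 1 base, a choice made after seeing the data, a further 12 regions matched, with a median of -1.12, and the other 92 had -0.24. Together, 14 of the 19 regions over 2-fold higher in replicate 2 had a CTCF match with at most 1 base off (73.7%), which 66.3% of all such distal regions had. Among the 12 exact matches the gap on the log2 scale was widest at Chrna4 (0.755 and 3.38), Htr2a 38.1 kb upstream (0.417 and 1.32) and Hrh2 (1.46 and 4.19), and it was absent at Chrm1 19.2 kb downstream (1.42 and 1.31).

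Promoters showed the pattern at fewer genes. None of the 28 promoter regions of the members had an exact CTCF match (1.75% of all promoter regions did), and 5 had one with at most 1 base off (17.9%, against 7.76% of all). These were a region each of Adra1b, Adra2b and Drd1, and a pair at Adra2a. They include 4 of the 5 member promoter regions that were over 2-fold higher in replicate 2, against 26.6% over all promoter regions. These 4 are the pair at Adra2a and the regions of Adra2b and Drd1, so they are not all separate loci. The Adra2b region is merged over the replicates, and its replicate 2 peak (2.34) lay just outside the promoter window. The cause of the gap at CTCF-matched regions was not tested. AP-1 matches went with a smaller gap in the same direction. The 27 distal member regions with TGANTCA had a median log2 difference of -0.07, and the 89 without had -0.38. All 5286 such regions had -0.26, against -0.48 without a match and -0.44 over all distal regions. With a match, 15 of the 27 member regions and 74.7% of all were higher in replicate 2.

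**Figure D5:**
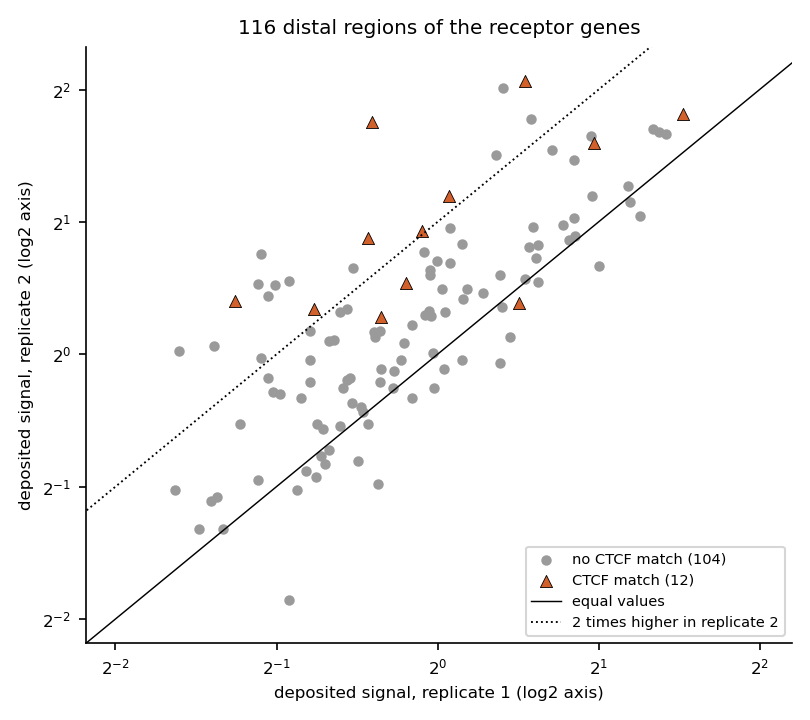
Deposited signal of the 116 distal regions of the receptor genes in replicate 1 and replicate 2 (log2 axes), with regions holding a CTCF match as triangles and the others as circles. The solid line marks equal values and the dotted line values 2 times higher in replicate 2, on or above which most triangles lie or to which they come close, while most circles lie below it.

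Other sequence matches are given as shares of the central 200 bp of each region, both strands. AP-1 was found in 23.3% of the distal member regions and 15.1% of all, and CAGCTG in 8.62% against 18.2%. CAGATG was at 27.6% against 26.6%, the cyclic AMP element TGACGTCA at 0.862% against 0.544% (the 1 region is in Chrna9), and EGR (GCGTGGG) at 3.45% against 4.12%. MEF2 matches were in 2.59% against 3.35%, and no member region matched NFI. In the promoter regions the GC box was in 35.7% against 51.9%. Footprints were present in both replicates in 92.9% of member promoter regions and 88.1% of all, and in 90.5% of the distal member regions against 91.0% of all. Shares over 28 and 116 regions are coarse, and a match does not show that the named protein binds.

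Among genes that work with the receptors, all 32 listed signal transducers had a promoter peak in both replicates, among them Prkaca, the catalytic subunit of protein kinase A (6.63 and 6.91), Grk6, a receptor kinase (6.98 and 6.26), and the G protein subunits Gna11 (6.33 and 6.56) and Gnaz (5.23 and 6.94). The range ran down to Gna14 (0.283 and 0.490), and 24 of the 32 lay under the median of all accessible promoters. Over all genes the share with a promoter peak in both replicates was 59.1%. CpG-rich promoters were held by 27 of the 32, and 90.1% of all CpG-rich genes had a promoter peak in both. Of 21 genes for transmitter synthesis, transport and breakdown, 7 had a promoter peak in both (33.3%), among them Slc18a1, Slc29a4, Ache, Dbh, Hnmt and Tph2. Only 9 of these 21 genes were CpG-rich. Slc18a1, a vesicular monoamine transporter, was the strongest (4.21 and 6.21), at a start site 420 bp from one of Atp6v1b2, so the peak may belong to either gene. Markers of monoamine and cholinergic cell bodies, which lie mostly outside the cortex, had 2 of 8, and Th, Slc6a3, Slc6a2, Hdc and Chat had no peak in either replicate. Of 8 nicotinic partners, 4 had one: the chaperone Ric3 (2.65 and 4.38), and the modulators Lynx1, Lypd1 and Lypd6.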

How the data were processed

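DNase-seq peaks, footprints and false discovery rate (FDR) intervals of 2 replicates were used as the authors deposited them, on mm10 per the labels. Of aligner, peak caller and normalization, none is named: they were not given in the sources used here. Peak values are a signal per peak, per the file headers and deposited columns. Footprint lists carry the p-value (FDR) threshold of 0.01 that the authors deposited, and interval lists give a deposited q-value per interval, listed below 0.05. Depth was inferred from the steps of the values.

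Gene models were those of GENCODE M21, and sequence was GRCm38.p6. Promoter peaks overlapped 500 bp on either side of any start site by at least 1 bp, and the strongest gave the value. Merged regions holding a peak of each replicate were shared, and those over 500 bp from all start sites went to the nearest start site of an autosomal protein-coding gene within 100 kb. Motifs were searched in the central 200 bp of regions, allowing 3 mismatches for RE1 alone. The consensus search, overlaps and nearest-gene steps were tested on simulated data. Tools were Python 3.11.15, pandas 2.3.3, numpy 2.4.6, scipy 1.17.1, pysam 0.24.0, bedtools 2.31.1, samtools 1.23.1 and matplotlib 3.10.9.

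The members, gene lists and motifs were chosen with earlier results of these data known. A few genes, 1 of them a member, are counted but not reported here by name or value. All other members are named with their call. Values in each replicate went to the 2 members of each system with the highest mean log2 promoter value, those with a promoter peak in 1 replicate, and the member of each system with the most distal regions, and other values are given after having been seen. Alternatives varied the peak list, the window, peak strength, transcripts, overlap, distance and replicates. The text descriptions of the samples were not used as data.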

Additional observations from a re-analysis of the deposited data

How the results depend on the processing

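Counts of members called at the promoter in both replicates, and of distal regions, for all members and the 6 systems, gave 14 results. Of their 105 values under the alternatives 80 lay within 1.5 times, and 25 moved by more. With the longer lists promoters went to 4 for dopamine and 7 for adrenergic receptors, and distal regions to 192 in all, with 44 serotonin, 50 adrenergic, 31 muscarinic, 21 nicotinic and 35 histamine. With the stronger 50% of peaks 13 members had a promoter peak (26.5%, against 53.2% of all genes), 2 of them serotonin receptors, and distal regions were 58 in all, with 10 serotonin, 3 dopamine, 18 adrenergic, 8 muscarinic, 6 nicotinic and 13 histamine. Windows of 100 bp left 1 adrenergic promoter and windows of 2000 bp gave 7. Within 50 kb there were 17 serotonin and 17 adrenergic distal regions. With a single replicate in place of both, promoters ranged over 23 to 26 in all, 1 to 2 for dopamine, 6 for adrenergic, 7 to 8 for serotonin and 3 to 4 for nicotinic receptors, and distal regions over 157 to 179 in all, 39 for serotonin, 10 to 13 for dopamine, 44 to 53 for adrenergic, 23 to 25 for muscarinic, 15 to 23 for nicotinic and 24 to 28 for histamine receptors. Counting only peaks without a start site of another gene within 500 bp, chosen after seeing the data, left 18 members. That was 36.7%, against 44.0% of all genes, a narrower gap than the 42.9% against 59.1% of the main setting. All 21 called members kept the call with the longer lists and with windows of 2000 bp. Among 11 named promoter values 7 moved by over 1 SD, all by summing peaks in place of taking the strongest. No paired analysis was possible because there is 1 group. If a step is 1 read per M, depth limits the weakest promoters, which then rest on under 60 inferred reads in replicate 2.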
